A study of Mus musculus with 24 samples.

Results

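The Ms4a genes encode small proteins that cross the membrane 4 times, and 6 of them, Ms4a7, Ms4a4a, Ms4a4c, Ms4a6b, Ms4a6c and Ms4a6d, were followed here in macrophages sorted from mouse colorectal tumors. They were taken by symbol from a table of 55487 gene IDs. That table holds 19 genes of this name, and the 13 others are given by their levels only. All 6 members belonged to the 3942 genes called expressed, those averaging 10 CPM or more (CPM, counts relative to the library total) and standing at 10 times background or higher. None of the 13 others did.

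MS4A proteins sit in the plasma membrane and in endosomes, where several of them associate with immune receptors and adjust their signalling. The best known are CD20 (Ms4a1) of B cells and the beta chain of the high-affinity IgE receptor (Ms4a2) of mast cells and basophils. A subset marks monocytes and macrophages, among them MS4A7 and MS4A4A in human and mouse. MS4A4A joins the fungal receptor Dectin-1 in lipid rafts of macrophages, and human variants near it are linked to the level of soluble TREM2.

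The macrophages came from MC38 tumors, a colon carcinoma line of C57BL/6 origin, placed orthotopically in C57BL/6J mice. The tumor cells were APC-KO or APC-WT, so the altered gene was in the tumor cells and the sorted macrophages were those of the host. Each genotype had 2 tumors, and each tumor had 6 libraries that the labels call replicates of one sample. The libraries measured total RNA of cells sorted as CD45+, CD11b+ and F4/80+ after Liberase digestion, made by an ultra low input Nextera XT protocol. Nothing in the labels says that the 6 libraries are separate sorts or animals, so their spread may be technical, and the tumor was the unit of comparison between genotypes. The labels do not say whether MC38 APC-KO was 1 clone or how many mice stand behind a tumor.

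The depth and composition of the libraries differed between the genotypes. The libraries held 8895722 to 19328572 counts in APC-KO tumor 1, 13464061 to 17196820 in APC-KO tumor 2, 74972634 to 93568353 in APC-WT tumor 1 and 28018638 to 46837543 in APC-WT tumor 2. Expressed genes took 33.2% and 31.8% of the counts of the APC-KO tumors, against 81.7% and 73.6% of those of the APC-WT tumors. Another 37.8% and 38.5% in APC-KO, against 1.32% and 7.07% in APC-WT, fell on 11 satellite-like loci. These share sequence with Gm10800 and were left out of the expressed genes. A background estimated from 1974 olfactory and vomeronasal receptor genes, spread by exon length, would take 17.6% and 17.9% in APC-KO, against 0.751% and 5.05% in APC-WT. Levels below are therefore scaled CPM, that is, CPM relative to the TMM-scaled total of the expressed genes alone. All 12 macrophage markers, Adgre1 and Itgam of the sort included, were expressed, and their summed level averaged 28310 and 29315 scaled CPM in APC-KO, against 33839 and 28572 in APC-WT. Lyz2 and the C1q genes make up most of that sum, and the markers of the sort did not follow it. Adgre1, which encodes F4/80, was at 271 and 282 scaled CPM in APC-KO, against 1276 and 1126 in APC-WT. Itgam, which encodes CD11b, was at 276 and 277 in APC-KO, against 1607 and 1742 in APC-WT, and Csf1r, the CSF1 receptor gene, was at 644 and 743 in APC-KO, against 3929 and 2961 in APC-WT. The part of these differences in those of the Ms4a genes was not tested. In bulk RNA, fewer cells of a type and less RNA per cell cannot be told apart.

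All 19 Ms4a genes lie in 1 cluster on chromosome 19, chr19:10962293-11640851 in GRCm38, over 679 kb, and the 6 members lie together in 284 kb of it. In order, these are Ms4a7 (ENSMUSG00000024672, chr19:11321039-11336146, minus strand), Ms4a4a (ENSMUSG00000101389, chr19:11375523-11392790, plus), Ms4a4c (ENSMUSG00000024675, chr19:11404770-11427246, plus), Ms4a6c (ENSMUSG00000079419, chr19:11469366-11482192, plus), Ms4a6b (ENSMUSG00000024677, chr19:11516512-11531256, plus) and Ms4a6d (ENSMUSG00000024679, chr19:11586604-11604849, minus). Each is annotated as protein coding, and values are for the whole gene.

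RefSeq has a promoter entry on GRCm38.p6 for 5 of the 6 members, all but Ms4a6d. Shown are 250-base promoter windows of Ms4a7 (chr19:11336147-11336396, minus strand), the member with the most counts, and of Ms4a4a (chr19:11375238-11375487, plus), the member with the largest genotype difference. Also shown are those of Ms4a6c (chr19:11469118-11469367, plus) and Ms4a6b (chr19:11518309-11518558, plus), a close pair. The Ms4a6b window lies inside the gene as annotated here, which starts at chr19:11516512. So does the Ms4a4c window, not shown (chr19:11407411-11407660, plus), whose gene starts at chr19:11404770. The sequences shown run 5′ to 3′ on the strand of the gene. Capitals mark GGAAGT or its reverse complement ACTTCC, a core that ETS factors such as the macrophage regulator PU.1 can bind.
Ms4a7: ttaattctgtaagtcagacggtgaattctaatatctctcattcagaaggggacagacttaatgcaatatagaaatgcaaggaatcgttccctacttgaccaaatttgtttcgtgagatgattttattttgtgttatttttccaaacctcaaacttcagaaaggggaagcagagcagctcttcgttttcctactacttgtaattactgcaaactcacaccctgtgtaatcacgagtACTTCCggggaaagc
Ms4a4a: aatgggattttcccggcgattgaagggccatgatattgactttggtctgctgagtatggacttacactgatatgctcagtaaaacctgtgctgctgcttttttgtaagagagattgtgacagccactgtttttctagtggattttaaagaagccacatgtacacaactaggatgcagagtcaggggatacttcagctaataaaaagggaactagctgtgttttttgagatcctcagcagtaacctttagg
Ms4a6c: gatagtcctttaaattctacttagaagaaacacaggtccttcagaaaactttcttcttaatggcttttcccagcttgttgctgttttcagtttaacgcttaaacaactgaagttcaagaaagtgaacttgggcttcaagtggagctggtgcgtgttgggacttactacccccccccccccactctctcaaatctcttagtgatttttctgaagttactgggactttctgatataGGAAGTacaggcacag
Ms4a6b: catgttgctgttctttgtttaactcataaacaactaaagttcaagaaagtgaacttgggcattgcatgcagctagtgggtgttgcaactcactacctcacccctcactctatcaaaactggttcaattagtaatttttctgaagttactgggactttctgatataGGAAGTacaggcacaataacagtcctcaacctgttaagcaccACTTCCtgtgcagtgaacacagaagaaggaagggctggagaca
The motif GGAAGT, sought on both strands, was present in a promoter of 4 of the 5 members, namely Ms4a7, Ms4a4c, Ms4a6c and, in 2 places, Ms4a6b. Ms4a7 has a further promoter entry (chr19:11334696-11334945, minus strand), whose window does not hold the motif. Of the 17 Ms4a genes with a promoter entry 8 hold it, among them Ms4a12, Ms4a4b, Ms4a4d and Ms4a3, which are not members. Of all 32536 RefSeq mouse promoters 19.8% hold it within the same window. It was not in the Ms4a4a window. TTCNNNGAA, a STAT type of element, was in the windows of 0 of the 5 members, and 7.04% of all promoters hold it. The Ms4a6b and Ms4a6c promoters could be aligned over 173 bases, of which 153 (88.4%) were identical, with a longest shared run of 48 bases that includes the motif. A match of letters is a description of the sequence, not a bound site.

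Ms4a4a and Ms4a6d were lower in macrophages of APC-KO tumors, Ms4a4c was lower by less, and Ms4a7 was called higher, with a direction that depends on the transcript length used. Ms4a6b and Ms4a6c were not called in this fit. With edgeR's quasi-likelihood fit of 2 tumor sums per genotype, an offset for transcript length and Benjamini-Hochberg adjustment over the expressed genes, 1 member was called higher and 3 lower at 0.05. Of all expressed genes 49.0% were called, 24.7% higher and 24.3% lower, so that the members' calls stand against a high background. The median log2 change of the 6 members was -0.37, and that of all expressed genes was -0.03. Without the length offset 2 members were called, Ms4a4a and Ms4a6d, beside 63.4% of all expressed genes.

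Ms4a4a, the Dectin-1 partner of macrophages, showed the widest gap. Its lowest, median and highest libraries were at 80.2, 83.6 and 91.4 scaled CPM in APC-KO tumor 1 and at 79.4, 84.9 and 92.2 in APC-KO tumor 2. They were at 288, 297 and 322 in APC-WT tumor 1 and at 193, 204 and 229.9 in APC-WT tumor 2. Every APC-KO library was below every APC-WT library, and the tumors of APC-KO lay on top of each other while those of APC-WT did not overlap. Of all expressed genes 56.5% had no overlap between the 12 APC-KO and 12 APC-WT libraries, 28.4% with APC-KO lower, and of the 6 members 3 did, all with APC-KO lower. The log2 change of Ms4a4a was -2.85 ± 0.23 with the length offset (SE, n = 2 tumors per genotype, adjusted p = 0.00295, edgeR) and -1.55 ± 0.21 without it (adjusted p = 0.00339). The offset accounts for 1.29 of the log2 difference, and the only annotated Ms4a4a transcript has 836 bases, in a range of lengths that was relatively high in APC-KO.

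Ms4a6d, which in mouse macrophages has been tied to restraint of the NLRP3 inflammasome, had 322, 360.2 and 381 scaled CPM in its lowest, median and highest library of APC-KO tumor 1 and 335, 352 and 376 in APC-KO tumor 2. In APC-WT tumor 1 these were 569, 592 and 619, and in APC-WT tumor 2 they were 534, 550.3 and 584. The genotypes did not overlap, and within each genotype the libraries of both tumors did. The log2 change was -1.29 ± 0.15 with the offset (adjusted p = 0.00433, edgeR) and -0.67 ± 0.13 without it (adjusted p = 0.0117). Ms4a4a and Ms4a6d were lower and called in all 18 fits scaled to the expressed genes.

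Ms4a4c, a neighbour of Ms4a4a in the cluster, was at 285, 311 and 316 scaled CPM in APC-KO tumor 1 (lowest, median, highest library) and at 329, 341 and 355 in APC-KO tumor 2. It was at 462, 472 and 502 in APC-WT tumor 1 and at 376, 388 and 409.9 in APC-WT tumor 2. No library of APC-KO reached the lowest of APC-WT, but APC-KO tumor 2 and APC-WT tumor 2 were close. The log2 change was -0.76 ± 0.18 with the offset (adjusted p = 0.027) and -0.40 ± 0.17 without it (adjusted p = 0.0918), and the call was lost in 6 of the 18 fits, among them those without APC-KO tumor 1 (-0.68, adjusted p = 0.133), without APC-KO tumor 2 (-0.90, adjusted p = 0.0822) and without APC-WT tumor 1 (-0.56, adjusted p = 0.054).

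Ms4a7, a marker of mature tissue macrophages, had 802, 826 and 855 scaled CPM in APC-KO tumor 1 (lowest, median, highest library) and 847, 869.8 and 922 in APC-KO tumor 2. In APC-WT tumor 1 it had 721, 732 and 803, and in APC-WT tumor 2 it had 577, 602 and 627. The medians of the APC-KO tumors were above those of the APC-WT tumors, and a single APC-WT tumor 1 library reached the lowest APC-KO library. The log2 change was 0.79 ± 0.17 with the offset (adjusted p = 0.0205, edgeR), but 0.36 ± 0.17 without it (adjusted p = 0.132). The same value was called where all genes shared the fit, scaled to the expressed genes and without offset (adjusted p = 0.0306 with a filter on low counts and 0.0239 with none). This call rests on which transcript length is used. The longest annotated Ms4a7 transcript has 3607 bases and the principal isoform has 1334, and with the principal isoform length the change was -0.26 ± 0.19 (adjusted p = 0.298), on the other side of 0 (3 members called in that fit, beside 45.3% of the genes with such an isoform). The call was also lost without APC-KO tumor 1 (0.83, adjusted p = 0.0815) and without APC-KO tumor 2 (0.69, adjusted p = 0.116).

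Ms4a6b, which in mouse T cells has been found with the costimulatory receptor GITR, had 269, 282 and 319 scaled CPM in APC-KO tumor 1 (lowest, median, highest library) and 272, 311 and 364 in APC-KO tumor 2. In APC-WT tumor 1 it had 456, 472 and 490.3, and in APC-WT tumor 2 it had 358, 365 and 389.9. The APC-KO libraries were lower except where the highest of APC-KO tumor 2 passed the lowest of APC-WT tumor 2. The log2 change was 0.02 ± 0.17 with the offset (95% interval -0.42 to 0.47, adjusted p = 0.913, edgeR) and -0.48 ± 0.18 without it (adjusted p = 0.0686). It was called lower, at the same -0.48, in 2 of the 18 fits, those of all genes without offset (adjusted p = 0.0149 with a filter on low counts and 0.0131 with none).

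Ms4a6c, whose promoter is close to that of Ms4a6b, had 448, 457 and 490.2 scaled CPM in APC-KO tumor 1 (lowest, median, highest library) and 504, 520.0 and 524 in APC-KO tumor 2. In APC-WT tumor 1 it had 464, 471 and 507, and in APC-WT tumor 2 it had 306, 322 and 347. APC-WT tumor 1 lay within the range of the APC-KO tumors and APC-WT tumor 2 lay below them. The log2 change was 0.04 ± 0.24 with the offset (95% interval -0.60 to 0.68, adjusted p = 0.901, edgeR) and 0.31 ± 0.23 without it (adjusted p = 0.296). Of its exonic sequence 1088 of 2050 bases also lie in BE692007, an antisense transcript. Whether counting used the strand is not given in the sources used here, so the reads of the pair cannot be told apart. BE692007 itself had 12662 counts in all, against 253304 for Ms4a6c.

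**Figure D1:**
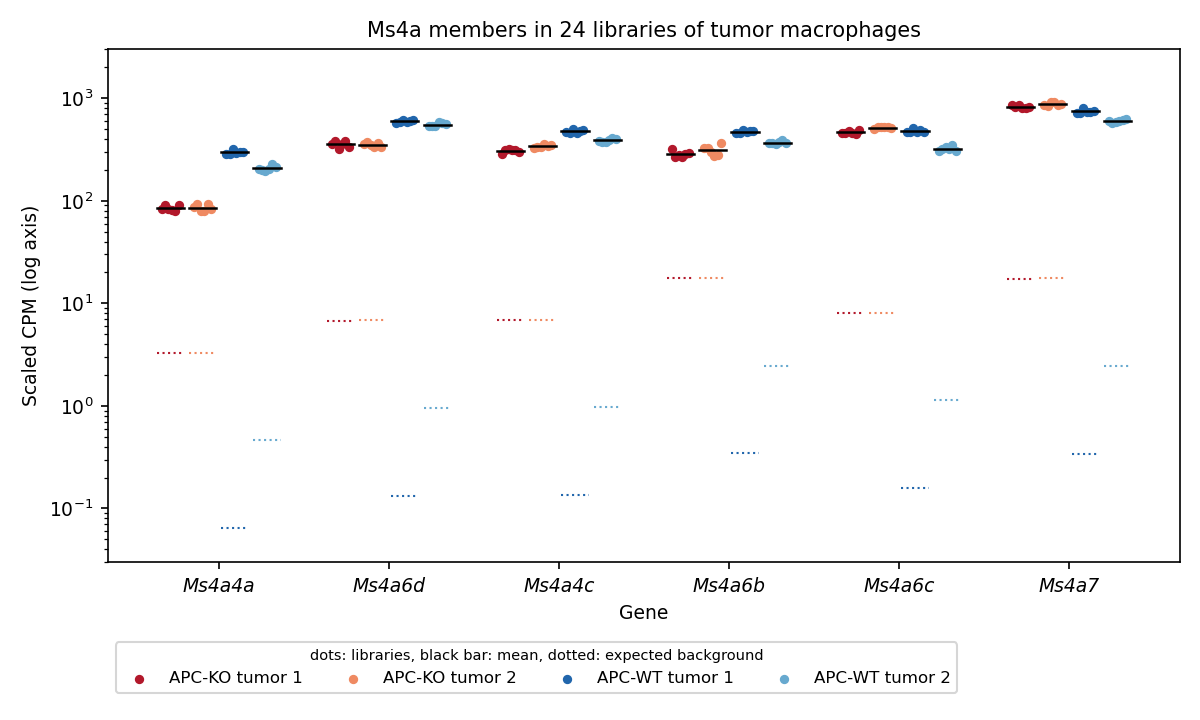
Scaled CPM (log axis) of the 6 members in 24 libraries, APC-KO tumors left of APC-WT tumors. Dots are libraries, black bars are means of 6 libraries and dotted lines are the expected background. Ms4a4a averaged 85.2 and 85.5 scaled CPM in the APC-KO tumors, against 299 and 207 in the APC-WT tumors, with no overlap of libraries.

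**Figure D2:**
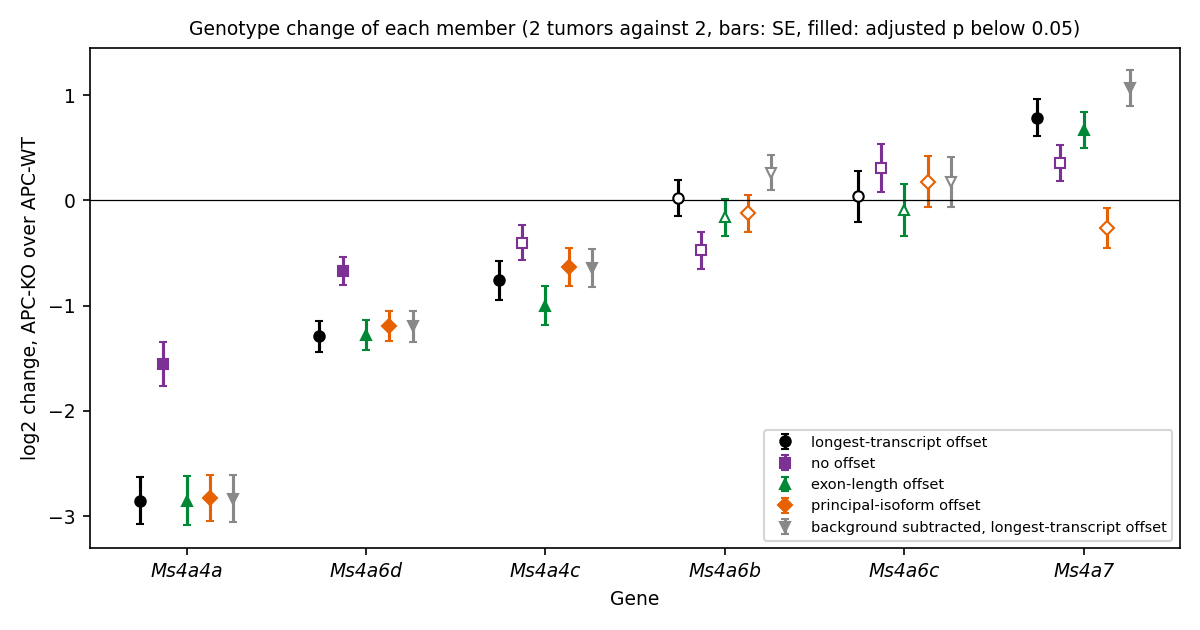
Log2 change (APC-KO over APC-WT) of each member by edgeR on 2 tumor sums per genotype, with SE as bars and filled symbols where the adjusted p is below 0.05, under 5 treatments of transcript length and background. Ms4a4a and Ms4a6d are filled in all 5, while Ms4a7 lies at 0.79 with the longest transcript and at -0.26 with the principal isoform.

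The make-up of the Ms4a counts, which does not depend on the scaling between libraries, also differed between the genotypes. The share of Ms4a4a was 3.39% and 3.17% in the APC-KO tumors, against 9.52% and 8.17% in the APC-WT tumors. The share of Ms4a7 was 32.9% and 32.6% in APC-KO, against 23.6% and 23.7% in APC-WT, and the share of Ms4a6d was 14.2% and 13.1% in APC-KO, against 18.9% and 21.8% in APC-WT. These are shares of counts and so lean to the longer transcripts. The log2 ratio of Ms4a7 over Ms4a4a, the pair with the largest genotype difference, was 4.18 and 4.19 in APC-KO with the length offset, against 0.44 and 0.70 in APC-WT. Without the offset it was 3.28 and 3.37 in APC-KO, against 1.31 and 1.54 in APC-WT. The size of its genotype difference thus depends on the offset (3.62 with it and 1.90 without it). Over all pairs of members, 14 of 15 had tumors of the genotypes that did not overlap, with or without the offset. The share over pairs of other expressed genes was not computed, and the 15 pairs are built from the same 6 genes. That count is therefore a description and not a trait of the Ms4a genes, and 2 tumors against 2 cannot give an exact two-sided p below 0.333. The 6 members together made up 92.6% and 92.2% of the Ms4a counts in APC-KO, against 97.5% and 96.4% in APC-WT. With expected background subtracted these shares were 97.3% and 96.8% in APC-KO, against 97.6% and 97.1% in APC-WT, so the genotypes overlapped. The summed level of the 6 members was 2325 ± 28.5 and 2485 ± 21.6 scaled CPM in APC-KO (SD, n = 6 libraries). It was 3063 ± 102 and 2444 ± 74.9 in APC-WT, so the genotypes overlapped in the total while the mix of members differed.

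**Figure D3:**
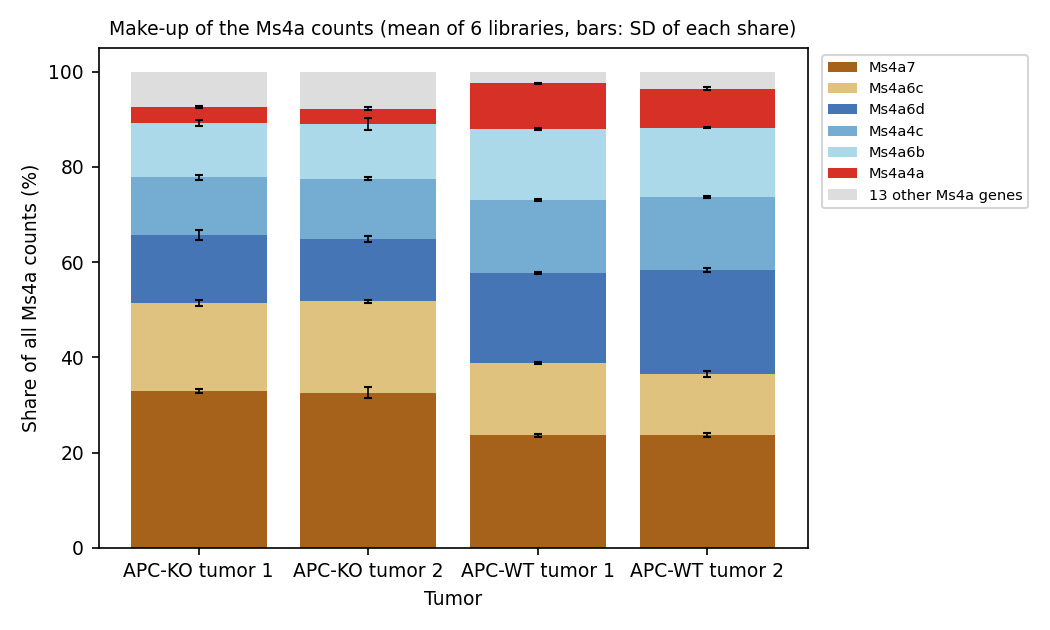
Share of all Ms4a counts (%) by gene in each tumor, with SD over 6 libraries as bars, APC-KO tumors at the left. The Ms4a4a band is 3.39% and 3.17% high in APC-KO, against 9.52% and 8.17% in APC-WT, and the Ms4a7 band is 32.9% and 32.6% in APC-KO, against 23.6% and 23.7% in APC-WT.

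Per kilobase of exon, where genes can be compared, the order of the members changed with genotype. In APC-KO tumor 1 the order was Ms4a6c at 227 ± 8.51 scaled CPM per kb, Ms4a6d at 205 ± 13.7, Ms4a7 at 186 ± 5.13, Ms4a4c at 175 ± 6.42, Ms4a4a at 102 ± 5.54 and Ms4a6b at 63.6 ± 4.14 (SD, n = 6 libraries). APC-KO tumor 2 had the same order, with Ms4a6d at 204 ± 9.66, Ms4a7 at 197 ± 6.96 and Ms4a4c at 195 ± 6.17 within each other's spread. In APC-WT tumor 1 Ms4a4a came first at 358 ± 15.1, before Ms4a6d at 342 ± 10.4, and their spreads touched. In APC-WT tumor 2 Ms4a6d came first at 319 ± 12.4, before Ms4a4a at 248 ± 15.3. By exon length Ms4a6b was last in all 4 tumors. With the principal isoform length in place of exon length 1, 1, 2 and 1 members kept their rank (APC-KO tumor 1 and 2, APC-WT tumor 1 and 2). Ms4a7 then came first in all 4 tumors, at 620.2 and 658 scaled CPM per kb in APC-KO, against 557 and 451 in APC-WT. Ms4a4a came last in the APC-KO tumors, at 101.9 and 102.3, below Ms4a6b at 106.4 and 115.8.

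Tumors of one genotype also differed. Between the APC-KO tumors 3 of 6 members were called, all higher in tumor 2, beside 34.9% of expressed genes (19.2% higher), with log2 changes of 0.20 ± 0.03 for Ms4a4c, 0.18 ± 0.03 for Ms4a6c and 0.10 ± 0.03 for Ms4a7 (SE, edgeR over 24 libraries). Between the APC-WT tumors all 6 were called lower in tumor 2, beside 47.6% of expressed genes called (28.3% lower), from -0.19 for Ms4a6d to -0.62 for Ms4a6c. Each APC-KO tumor was also set against each APC-WT tumor (KO 1 with WT 1, KO 1 with WT 2, KO 2 with WT 1, KO 2 with WT 2), where 6, 5, 5 and 6 members were called beside 81.4%, 79.9%, 81.4% and 80.4% of expressed genes. In that order Ms4a4a changed by -3.17, -2.61, -3.07 and -2.51 and Ms4a6d by -1.43, -1.24, -1.39 and -1.19. These p-values measure the spread between the libraries of a tumor, which may be technical.

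The 13 other Ms4a genes stood at 0.289 to 3.56 times their expected background in APC-KO. In APC-WT tumor 1 and 2 they stood at 0.325 to 172 and 0.506 to 18.2 times. Of the 13, 3 and 2 were over 2 times their expected background in the APC-KO tumors, against 6 and 4 in the APC-WT tumors. Expected background was higher in APC-KO, so these ratios and counts cannot be compared between genotypes. Ms4a8a was at 25.1 and 19.6 scaled CPM in APC-KO, beside an expected 7.03 and 7.08. In APC-WT it was at 7.08 and 16.4, beside an expected 0.138 and 0.991. Ms4a1, the CD20 gene, was at 20.0 and 24.7 scaled CPM in APC-KO beside an expected 24.2 and 24.4, and at 0.776 and 5.00 in APC-WT beside an expected 0.475 and 3.42. Ms4a14, the gene next to Ms4a7, was at 33.01 and 31.04 in APC-KO beside an expected 15.9 and 16.0, and at 53.8 and 40.9 in APC-WT beside an expected 0.312 and 2.24. Expected background was 2.58% and 2.43% of the summed level of the 6 members in APC-KO, against 0.0384% and 0.346% in APC-WT. The related Tmem176b, a 4-span protein outside the cluster, was at 86.0 and 108 scaled CPM in APC-KO, against 233 and 159.5 in APC-WT (log2 change with the offset -1.41 ± 0.26, adjusted p = 0.0132, edgeR). Its neighbour Tmem176a was at 52.1 and 73.2 in APC-KO, against 114 and 74.4 in APC-WT, and was not called (adjusted p = 0.172).

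**Figure D4:**
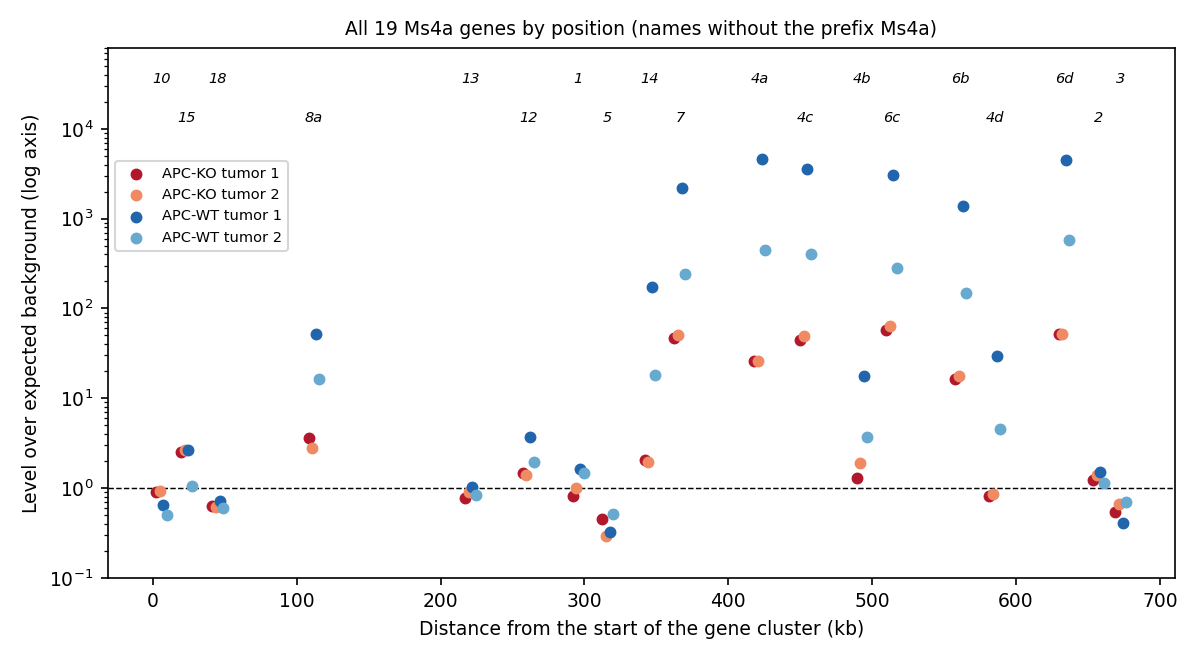
Level over expected background (log axis) of all 19 Ms4a genes by distance from the start of their cluster (kb), with 1 dot per tumor. The 6 members lie at 16.2 times background or more in every tumor, and in the APC-KO tumors the others lie at 3.56 times or less. In APC-WT tumor 1 and 2 the others reach 172 and 18.2 times (Ms4a14), and the lowest member, Ms4a6b, lies at 1369 and 149 times. Expected background is higher in APC-KO, so the heights cannot be compared between genotypes.

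A list of 15 genes held partners of MS4A proteins and neighbours of these, from Dectin-1, TREM2 and Fc receptor signalling and the tetraspanins. More of its genes were lower than higher. Of the 15, 14 were expressed, and with the length offset 2 were higher and 9 lower, beside 24.7% and 24.3% of all expressed genes. The median log2 change of the list was -0.78 with the offset. Without it the median was -0.34, with 3 higher and 7 lower, and with the principal isoform length 0 were higher and 8 lower. Clec7a, which encodes Dectin-1, was at 214 ± 10.9 and 176 ± 22.7 scaled CPM in APC-KO, against 308 ± 17.9 and 379 ± 18.6 in APC-WT, with a log2 change of -0.75 ± 0.17 (adjusted p = 0.0249, edgeR). Plcg2, a phospholipase downstream of ITAM receptors, was at 130 ± 5.06 and 122 ± 8.84 in APC-KO, against 422 ± 10.6 and 376 ± 9.21 in APC-WT (-1.14, adjusted p = 0.0041). The low-affinity Fc receptor Fcgr4 (-1.33) and the tetraspanin Cd81 (-1.34) were lower as well, with and without the offset.

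Trem2, the lipid receptor, went the other way, at 378 ± 26.1 and 433 ± 16.2 scaled CPM in APC-KO, against 260 ± 8.94 and 189.8 ± 7.45 in APC-WT. Its log2 change was 1.40 ± 0.19 with the offset and 0.88 ± 0.20 without it (adjusted p = 0.0063 and 0.0184, edgeR), but -0.05 ± 0.22 with the principal isoform length. Cd63, a tetraspanin of late endosomes, rose by 1.21 with the offset and lay at 0.02 with the principal isoform length. Fcer1g, the Fc receptor gamma chain, fell by 1.14 with the offset, while its change without it was 0.35 (adjusted p = 0.102). The list was chosen with earlier results of these data known.

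The expressed genes with the pattern most like each member over the 24 libraries, by the smallest root mean square (RMS) difference of centred log2 levels without offset, differed from member to member. They were Cd83, Tgfbr2 and C3ar1 for Ms4a4a (RMS 0.115 to 0.128), and Ctsa, Stau1 and Cxcl16 for Ms4a6d (0.0832 to 0.0901). Tmem106a, Csrp1 and Hexa came nearest to Ms4a4c (0.0544 to 0.0759), and Tuba1c, Fcer1g and Pnp to Ms4a7 (0.0625 to 0.0701). Ly6e, Arhgap17 and B2m came nearest to Ms4a6b (0.101 to 0.112), and Tra2b, Tep1 and Ly6a to Ms4a6c (0.0862 to 0.108). Among the members themselves, Ms4a7 was the 4th nearest gene to Ms4a6c, and Ms4a4c the 5th nearest to Ms4a6b. The libraries share tumors and depth, so this likeness is a description.

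Summed markers of some other cell types differed between the genotypes, and those of others overlapped, with background not subtracted. The summed level of 10 monocyte markers, 7 of them expressed, ranged from 1466 to 1542 and 1447 to 1558 scaled CPM in the libraries of the APC-KO tumors, against 2044 to 2241 and 2402 to 2887 in the APC-WT tumors. Fn1 had the widest gap in that list, at 491 and 458 in APC-KO, against 1227 and 1297 in APC-WT, while Plac8 was at 159 and 159 in APC-KO, against 55.2 and 108 in APC-WT. The summed level of 6 fibroblast markers, 3 of them expressed, ranged from 301 to 400.1 and 515 to 567 in APC-KO. In APC-WT it ranged from 1586 to 1735 and 878 to 1002. Col3a1 had the widest gap (86.8 and 156 in APC-KO, against 1015 and 514), and Col1a1, Dcn and Lum were lower as well. Pdgfra was higher in APC-KO (76.1 and 77.3, expected background 39.3 and 39.5, against 24.4 and 16.6). Col1a2 was not lower (66.9 and 102, expected background 48.7 and 49.0, against 65.3 and 45.1). The summed level of 8 T cell markers, 0 of them expressed, ranged from 129 to 160.4 and 240.4 to 259.6 in APC-KO. In APC-WT it ranged from 23.1 to 27.1 and 41.5 to 48.9. Its expected background was 87.9 and 88.5 in APC-KO, against 1.72 and 12.4 in APC-WT. Mean sums of 8 B cell markers, 1 of them expressed, were 218 and 225 in APC-KO (expected background 163 and 164). In APC-WT they were 28.8 and 50.1 (3.19 and 23.0). Those of 5 granulocyte progenitor markers, 0 of them expressed, were 71.6 and 73.3 in APC-KO (expected background 35.5 and 35.7). In APC-WT they were 3.21 and 8.93 (0.696 and 5.00). The tumors of the genotypes overlapped in the mean sums of neutrophil markers (436 and 215 in APC-KO, against 224 and 297 in APC-WT), mast cell and basophil markers (346 and 299 in APC-KO, against 85.8 and 330.3 in APC-WT) and epithelial and tumor markers (221 and 277 in APC-KO, against 170.3 and 533 in APC-WT). Dendritic cell markers were at 343 and 334 in APC-KO, against 336 and 304 in APC-WT. Their expected background was 134 and 135 in APC-KO, against 2.63 and 18.9 in APC-WT. Single markers of that list went opposite ways. Itgax was at 93.2 and 89.4 in APC-KO, against 311 and 240 in APC-WT. Flt3 was at 66.6 and 66.2 in APC-KO (expected background 24.2 and 24.4), against 1.55 and 7.75 in APC-WT. No marker of these lists was at 0, and their part in the Ms4a differences was not tested. Of the 31-base words of each member, the share found in other genes was 58.1% for Ms4a6c, 17.1% for Ms4a4c, 8.11% for Ms4a6d, 7.90% for Ms4a6b, 1.42% for Ms4a7 and 0% for Ms4a4a.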

How the data were processed

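Macrophages sorted from 4 tumors gave 24 libraries. The authors deposited whole-number counts per gene, not normalized, for 55487 gene IDs. The submitters' processing notes list HISAT2, StringTie, bcl2fastq 2.20.0 and the build mm9, whose roles and settings are not given in the sources used here. Symbols, positions and lengths came by gene ID from GENCODE M21 (GRCm38), with a symbol for 55227 IDs.

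Everything else was computed from the counts with R 4.3.3, edgeR 4.0.16, limma 3.58.1, DESeq2 1.42.0 and Python 3.11.15. Each tumor's 6 libraries were added up, and the 2 APC-KO totals were compared with the 2 APC-WT totals in edgeR (quasi-likelihood F test) over 3942 expressed genes, with TMM, Benjamini-Hochberg adjustment at 0.05 and an offset per tumor from a loess (span 0.5) of log2 level on log2 length of the longest transcript. SE is the log2 change divided by the square root of F. Tumors were compared over 24 libraries, with a mean per tumor. The 11 satellite-like loci were left out of the expressed genes. The fits were tested on simulated data. Alternatives varied the length, scaling, filter, tool, background and libraries. Always named were the members, expressed relatives, the 3 nearest genes to each member, Clec7a and Trem2. So were up to 4 genes of the list of partners and neighbours each way, those with the smallest p. The members and lists were chosen with earlier results of these data known. Library numbers did not pair the samples.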

Additional observations from a re-analysis of the deposited data

Results flagged for a closer look

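Among the 6 members in 4 tumors, 24 groups of 6 libraries, 2 had a library far from the others by Dixon's criterion, which chance gives in about 1 of 20 groups. Ms4a7 was at 803 scaled CPM in replicate 3 of APC-WT tumor 1, where the next library was at 748 and the median at 732. Ms4a6b was at 389.9 scaled CPM in replicate 5 of APC-WT tumor 2, where the next library was at 370.0 and the median at 365.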

How the results depend on the processing

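The falls of Ms4a4a and Ms4a6d kept their direction and call in all 18 fits scaled to the expressed genes, and depth limits the APC-KO libraries most. TMM over all genes moved the median expressed gene by -4.01 on the log2 scale and called 0 of 53705 genes (17844 at an unadjusted p under 0.05, edgeR) and 0 members (5 unadjusted). There the changes were -3.74 for Ms4a7, -4.59 for Ms4a6b, -3.86 for Ms4a6c, -4.72 for Ms4a6d, -5.72 for Ms4a4a and -4.50 for Ms4a4c, which relative to that median are 0.26, -0.58, 0.15, -0.71, -1.71 and -0.49. Without the length offset Ms4a7 was at 0.36, Ms4a6b at -0.48 and Ms4a4c at -0.40, with 2 members called. Scaling to the expressed genes called 33182 of all filtered genes and 32034 unfiltered, with Ms4a6b at -0.48 and called lower in both. On exon length Ms4a6b was at -0.16 and Ms4a6c at -0.088. On the principal isoform, added after the data were seen, Ms4a7 was at -0.26 and Ms4a6b at -0.12, and with background also subtracted Ms4a7 was at -0.17 and Ms4a4c at -0.50, with 2 members called. The cause was not tested. Leaving out 1 tumor gave Ms4a7 0.64 to 0.95, Ms4a6b -0.13 to 0.20, Ms4a6c -0.24 to 0.38, Ms4a4c -0.93 to -0.56, 2 to 4 members called and 703 to 1934 genes called.

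With tumor number as a replicate block, Ms4a7 was at 0.79 (adjusted p = 0.0737), Ms4a4c at -0.75 (adjusted p = 0.0857), and 2 members and 1126 genes were called. Over the expressed genes, the difference of tumor 1 from tumor 2 in APC-KO correlated at -0.41 with that in APC-WT. The crossed pairing called 4 members and 2356 genes. The numbers of the libraries paired no samples (correlations -0.47 to 0.72, and 6 of 24 libraries correlated best with their own number), and that replicate block left the members called in every library comparison at 3 to 6, as without it.

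Between tumors, single genes reversed as follows. For APC-KO tumor 2 against tumor 1, Ms4a6d was at -0.012 without the offset, and under TMM over all genes Ms4a6d was at -0.022 and Ms4a4a at -0.0058, with 0 members called (2 unadjusted, and 1022 genes called). In the pairs of APC-KO tumor 1 with APC-WT tumor 1 and 2 and of APC-KO tumor 2 with the same, Ms4a7 was at -3.68, -2.08, -3.60 and -2.001 under TMM over all genes and at -0.48, -0.13, -0.37 and -0.019 on the principal isoform. Against APC-WT tumor 2, Ms4a6b was at -0.37 and -0.25 without the offset and at -2.91 and -2.79 under TMM over all genes, where Ms4a6c was at -2.01 and -1.87. For APC-KO tumor 2 against APC-WT tumor 1, Ms4a6c was at 0.11 without the offset. By principal isoform 1, 1, 2 and 1 members kept their rank per kb. With background subtracted, the APC-KO minus APC-WT share changed to 10.8 points for Ms4a7 (9.07 as reported), 5.94 for Ms4a6c and -2.26 for Ms4a4c. Per kb of exon it was 6.90 for Ms4a7, -0.66 for Ms4a6b, 8.28 for Ms4a6c, -5.43 for Ms4a6d, -12.6 for Ms4a4a and -0.94 for Ms4a4c.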
